A study of Mus musculus with 24 samples.

Results

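The 3 mouse embryonic stem cell (mESC) lines with an expanded CAG repeat in Htt, the gene of Huntington's disease, are named Q50, Q92 and Q111 and were compared along their repeat number. The libraries were all those of mESC whose genotype was Q50, Q92 or Q111, which gave 6 of the 24 small RNA libraries, 2 for each line. Each gene received a slope on 50, 92 and 111 repeats, with the replicate number as a block, so that replicate 1 and replicate 2 each formed a series of 3 libraries across the lines. The other libraries of the series were 6 expanded neural progenitor cell (NPC) libraries, 6 mESC libraries of Htt knockout (KO), wild-type (WT) and Q20 cells, and the corresponding NPC.

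Per the labels, the knock-in lines are heterozygous, so each carries 1 expanded Hdh (Htt) allele beside a normal one, and all were received as a series from another laboratory. No treatment was given. The mESC were kept undifferentiated with leukemia inhibitory factor on gelatin over a layer of irradiated CF-1 mouse fibroblasts. Each repeat number was represented by a single line, so the repeat number and any other property of that line cannot be told apart. The sample titles give 92 repeats for the middle line, whereas the growth protocol gives 89. Each line had 2 biological samples, per the design text. No source says whether they were separate cultures, so the p-values measure the spread between these samples. In the slope fit this is the spread left after the replicate block, and it includes any distance of Q92 from a straight line. That spread was shared across genes, so a p-value does not rest on a gene's own samples alone.

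Huntingtin, the product of Htt, is needed in early development, and its CAG repeat encodes a run of glutamines whose expansion causes Huntington's disease. Embryonic stem cells have a small RNA population of their own, dominated among microRNAs by the Mir290 cluster. A microRNA is cut from a hairpin and selects its target messages mainly by its seed, bases 2 to 8. Small nucleolar RNAs (snoRNAs) guide chemical changes in other RNAs and fall into a box C/D type and a longer box H/ACA type, which ends in ACA followed by 3 bases. The 5S rRNA is a component of the large ribosomal subunit made from many scattered gene copies, and mitochondrial tRNAs are cut from long mitochondrial transcripts.

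Total counts assigned to genes were between 642384 and 2360434 per library, well below the number of reads per sample stated in the labels. Replicate 1 was the deeper library in every line, so depth and replicate number cannot be told apart. A count was seen in 15151 genes, and 1300 had enough counts to be tested. A count of 0 allowed up to 1.38 CPM (counts per 1e6 of a library's total after TMM scaling) in the deepest library by this measure and up to 3.69 CPM in the shallowest, for counting error only. Of 18 pluripotency markers, 17 were found in the annotation and all 17 had counts, with a summed level of 967 to 1980 CPM. Fibroblast feeder markers summed to 18.4 to 25.3 CPM, with 6 of 12 at 0 in all 6 libraries, among them Col1a1, Col1a2 and Col3a1. These 2 sums are of unlike RNA types, since the pluripotency markers include microRNAs and the feeder markers are all mRNAs. A list of 27 pluripotency mRNAs alone summed to 109 to 151.2 CPM, and a list of 25 feeder mRNAs to 22.73 to 33.18 CPM. Neural markers summed to at most 6.14 CPM, mesoderm markers to at most 1.23 CPM and primitive endoderm markers to 10.8 to 32.2 CPM. Htt itself had 9, 4 and 9 counts in the replicate 1 libraries and 0, 1 and 2 counts in the replicate 2 libraries of the 3 lines, too few to check the genotype, and the repeat number could not be read from gene counts.

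Of the 1300 genes tested, 11 (0.846%) were called along the CAG slope at an adjusted p under 0.05 in edgeR's quasi-likelihood test. Levels fell with repeat number for 8 of them (0.615%), namely the microRNA gene Mir15a, the 5S rRNA genes n-R5s195 and n-R5s194, the mitochondrial glutamine tRNA mt-Tq, the snRNA gene Gm25939 and the snoRNA genes Gm26493, Gm24616 and Gm25777. Levels rose for 3 (0.231%), the noncoding RNA Lncenc1, the microRNA gene Mir142 and the metallothionein gene Mt2. The fitted change from 50 to 111 repeats was between 3.47-fold and 5.28-fold downward for the 8 and between 3.98-fold and 5.39-fold upward for the 3. At an unadjusted p under 0.05, 54 genes had a positive slope (4.15%) and 60 a negative slope (4.62%), and the median slope of all genes was 0.00625 log2 per 10 repeats. At any p, 687 of the 1300 had a positive and 613 a negative slope, which is the background for the sign counts of RNA classes below.

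The calls depended on the design and on single libraries. Without the replicate block no gene was called, and the 11 genes had adjusted p-values of 0.411 to 0.924. Leaving out replicate 1 or replicate 2 of Q111 also ended all calls. Leaving out a Q50 or Q92 library changed which genes were called. Without Q50 replicate 1, Mir142 was the only gene of the 11 that kept its call. Fits within 1 replicate series had 1 library per line, so their spread came only from departures from a straight line. The 11 genes kept their calls within the replicate 1 libraries, which were part of the fit that made those calls. They lost them within the replicate 2 libraries. With library totals in place of TMM scaling 3 genes were called, all of them falling.

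Most of the called genes encode short noncoding RNAs, and sequences of several are given here so that close copies and shared seeds can be seen. The 5S genes n-R5s195 (chr3:39635964-39636082, minus strand, overlapping an exon of the unnamed gene Gm42781 on the opposite strand) and n-R5s194 (chr3:4338998-4339116, plus strand, in no other gene) differ at 9 of 119 positions, set in capitals. The snoRNA genes Gm26493 (chr8:95746060-95746195, minus strand, in an intron of Cnot1) and Gm25777 (chr16:18240717-18240842, minus strand, in an intron of Ranbp1) end in the ACA of the H/ACA type, in capitals. All 4 are transcript sequences of GENCODE M21 on GRCm38.
n-R5s195: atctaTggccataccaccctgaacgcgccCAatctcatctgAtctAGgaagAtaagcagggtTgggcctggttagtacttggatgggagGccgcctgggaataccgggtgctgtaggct
n-R5s194: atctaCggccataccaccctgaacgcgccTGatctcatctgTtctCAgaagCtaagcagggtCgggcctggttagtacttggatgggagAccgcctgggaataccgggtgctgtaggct
Gm26493: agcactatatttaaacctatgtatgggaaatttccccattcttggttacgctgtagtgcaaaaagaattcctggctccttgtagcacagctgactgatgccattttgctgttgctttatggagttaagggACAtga
Gm25777: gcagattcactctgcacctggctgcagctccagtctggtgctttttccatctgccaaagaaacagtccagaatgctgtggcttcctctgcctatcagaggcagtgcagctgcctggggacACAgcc

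The mature microRNAs of the genes that the results turn on are printed from RefSeq (GRCm38.p6) with the seed in capitals. Mir15a (chr14:61632027-61632110, minus strand, in an intron of Dleu2) and its neighbour Mir16-1 give 5′ arms with the same seed, AGCAGCA. Mir142 (chr11:87756864-87756927, plus strand, in an intron of Mir142hg) and Mir20b (chrX:52742113-52742192, minus strand) have other seeds, and Mir20b shares AAAGUGC with Mir106a beside it. The counts are per gene, so the arms of a hairpin cannot be told apart.
mmu-miR-15a-5p: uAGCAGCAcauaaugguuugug
mmu-miR-16-5p: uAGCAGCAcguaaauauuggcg
mmu-miR-142a-5p: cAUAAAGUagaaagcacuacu
mmu-miR-142a-3p: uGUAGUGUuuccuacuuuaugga
mmu-miR-20b-5p: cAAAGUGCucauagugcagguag
mmu-miR-106a-5p: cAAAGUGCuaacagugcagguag

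The 2 called 5S genes were highest in Q50 and lowest in Q111. The level of n-R5s194 was 61.7 and 63.5 CPM in the Q50 libraries, 27.2 and 34.4 CPM in Q92, and 15.4 and 17.2 CPM in Q111. The 3 lines did not overlap, and both series stepped down at each line. The fitted change from 50 to 111 repeats was -1.85 ± 0.44 log2 (SE, n = 6 libraries, edgeR adjusted p = 0.0217). Over all genes tested, Q50 did not overlap Q92 and Q111 in 11.8%, which is a looser measure. The share with all 3 lines apart was not computed, and the call itself favours such separation. The level of n-R5s195 was 130.2 and 59.9 CPM in Q50, 24.7 and 50.4 CPM in Q92, and 21.3 and 17.8 CPM in Q111. The lines again did not overlap, but the Q50 libraries were far apart. Its fitted change was -2.22 ± 0.47 log2 (adjusted p = 0.00829), and -1.39 log2 without Q50 replicate 1. Copies of the 5S gene share sequence, and 60% of the 30-base stretches of n-R5s194 and 20% of those of n-R5s195 occur in other annotated genes, so reads may have been divided among copies.

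All 7 genes named n-R5s that could be tested, of 180 in the annotation and 37 with a count, had a negative slope, and 5 of the 7 had an unadjusted p under 0.05, beside 4.62% of all genes. This list was made after the values were seen. The median slope of the 7 was -0.194 log2 per 10 repeats, beside 0.00625 for all genes. After the 2 called genes came n-R5s115 with an adjusted p of 0.0567, n-R5s2 with 0.311 and n-R5s71 with 0.370, while n-R5s5 and n-R5s136 had 0.641 and 0.943. Summed over all copies, the 5S level was 563.8 and 421.5 CPM in Q50, 198.8 and 290.1 CPM in Q92, and 201.1 and 215.6 CPM in Q111. Both Q50 libraries were above the other 4, while Q92 and Q111 overlapped. As a share of all counts, without any scaling, the sum was 0.0573% and 0.0548% in Q50 and 0.0147% to 0.0305% in the other 4 libraries. Without Q50 replicate 1 all 7 slopes stayed negative, with a median of -0.147 and 2 at an unadjusted p under 0.05.

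The mitochondrial tRNA gene mt-Tq had the highest CPM of the called genes and was high in Q50 alone. This tRNA carries glutamine, and its gene (chrM:3772-3842, minus strand) overlaps the end of mt-Ti on the opposite strand. Its level was 1753 and 1742 CPM in Q50, 609.0 and 467.0 CPM in Q92, and 612.7 and 307.2 CPM in Q111. The Q50 libraries were alike and stood apart, whereas Q92 and Q111 overlapped. The fitted change was -2.08 ± 0.50 log2 (edgeR adjusted p = 0.0231), with 1 direction in both series. Between single lines, Q92 was lower than Q50 by a log2 value of -1.73 ± 0.53 (unadjusted p = 0.00384, adjusted p = 0.749) and Q111 lower than Q92 by -0.27 ± 0.52 (adjusted p = 0.963).

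Most other mitochondrial tRNAs had unequal slopes in the 2 series. All 12 tested mitochondrial tRNAs had a negative slope (median -0.159), though only 3 of the 12 did within replicate 2, with 5 at an unadjusted p under 0.05 (4.62% of all genes) and 1 called. This division of the mitochondrial transcripts was made after the values were seen. The methionine tRNA mt-Tm had 1908 CPM in Q50 replicate 1 but 79.0 CPM in Q50 replicate 2, beside 232.3 and 130.3 CPM in Q92 and 213.8 and 78.0 CPM in Q111. A single library was therefore high, and the slope of mt-Tm was not called (adjusted p = 0.0977). The serine tRNA mt-Ts2 showed the same picture, at 6513 CPM in Q50 replicate 1 and between 1191 and 1887 CPM in the other 5 libraries. Without Q50 replicate 1 only 3 of the 12 slopes were negative and their median was 0.0448. The proline tRNA mt-Tp was higher in both Q50 libraries, at 39.6 and 53.9 CPM against 13.9 to 26.4 CPM in the others, with series slopes of -0.22 and -0.19, but was not called (adjusted p = 0.185, chosen after its values were seen). The 9 other mitochondrial transcripts, rRNAs and mRNAs, had a median slope of -0.0343 with none at an unadjusted p under 0.05.

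The negative slopes of the box H/ACA-like snoRNAs rested on the same library. Of 115 snoRNA genes tested, 35 were at least 110 bases long and ended in ACA followed by 3 bases (16.4% of the annotated snoRNA genes have this pattern), and 51 held TGATGA and, near the 3′ end, CTGA on the transcript strand, as the C/D type does. Of the 35, 33 had a negative slope, 15 of these at an unadjusted p under 0.05 (4.62% of all genes), and 2 were called (0.615% of all genes). Their median slope was -0.146, beside 0.00887 for the 51, of which 23 were negative and 1 was negative at an unadjusted p under 0.05. The classes were defined from sequence after the values of named snoRNAs were seen. Without Q50 replicate 1, 18 of the 35 slopes were negative and their median was -0.0252.

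Within this class Gm26493 stood at 98.9 CPM in Q50 replicate 1 and between 10.8 and 28.3 CPM in the other 5 libraries. Its fitted change was -1.97 ± 0.50 log2 (edgeR adjusted p = 0.0333) but -0.18 log2 without that library. Gm25777 stood at 30.8 CPM there and between 4.3 and 12.3 CPM elsewhere, with a change of -1.80 ± 0.47 log2 (adjusted p = 0.0432) and of -0.46 log2 without it. Neither was higher in Q50 replicate 2 than in Q92 replicate 2. Gm24616, a snoRNA gene without the terminal pattern (chr16:23111617-23111755, plus strand, overlapping an exon of Eif4a2), had 48.8 CPM in Q50 replicate 1 and 1.9 to 9.0 CPM elsewhere. Its call (-1.98 ± 0.52 log2, adjusted p = 0.0432) reversed to 0.74 log2 without that library, and its slope was positive within replicate 2. A different pattern was found for Snora31, a named H/ACA snoRNA from an intron of Tpt1, which was not called (adjusted p = 0.0977). Its level was 503.5 and 532.9 CPM in Q50, 151.9 and 193.0 CPM in Q92, and 171.8 and 216.2 CPM in Q111, so both Q50 libraries were high and the other lines overlapped. Snora20 had an adjusted p of 0.0567 with 34.1 CPM in Q50 replicate 1 and no count in Q50 replicate 2. Snora21, at the highest mean CPM of the named H/ACA snoRNAs, went the other way, with a slope of 0.18 (unadjusted p = 0.0438, adjusted p = 0.538).

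**Figure D1:**
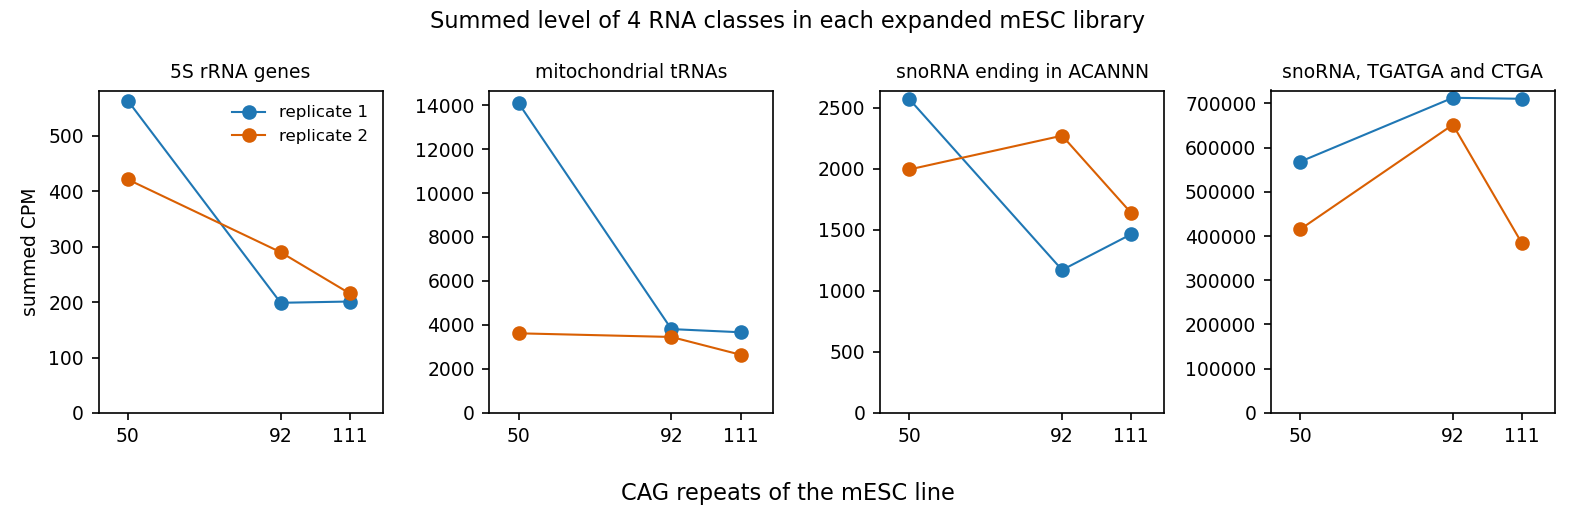
Summed CPM (vertical axes, starting at 0) of 4 RNA classes against the CAG repeats of the mESC line, with 1 point per library and 1 line per replicate series. The 5S level is 421.5 CPM or more in both Q50 libraries and at most 290.1 CPM in the other 4. For mitochondrial tRNAs only Q50 replicate 1, at 14090 CPM, stands apart, and the 2 series of both snoRNA classes differ in course.

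The box C/D-like snoRNAs held more than any other class, and they bear on the scaling. They made up 52.7% to 57.8% of all counts in the 6 libraries, a narrow range, while their level scaled by TMM ranged from 383400 to 712600 CPM. The TMM factors, from 0.747 to 1.442, set this difference. Replacing TMM by library totals shifted the median change of all genes from 50 to 111 repeats by -0.214 log2. All 11 called genes kept their direction under that scaling. Snord49a, at the highest CPM of this type, had a slope of 0.06 ± 0.10 log2 per 10 repeats (adjusted p = 0.936). Among the 42 tested genes named Snord the largest change was in Snord70, with a slope of -0.19 (unadjusted p = 0.0300, adjusted p = 0.475).

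The snRNA gene Gm25939 (chr1:72255008-72255198, plus strand, in no other gene) begins with the letters of U2, the spliceosomal RNA that pairs with the branch site of introns. It differed at 3 of 191 positions from Gm25360, and 81.5% of its 30-base stretches occur in other annotated genes, so its count is uncertain. Its level was 19.8 and 6.0 CPM in Q50, 5.1 and 6.1 CPM in Q92, and 1.6 and 3.7 CPM in Q111. Gm25939 had enough counts to be tested only through the Q50 libraries, where its mean was highest, so its call cannot be separated from that selection. The Q50 and Q92 lines overlapped, and the change of -2.26 ± 0.53 log2 (edgeR adjusted p = 0.0207) became -0.96 log2 without Q50 replicate 1. The near copy Gm25360 of equal length was at 852.8 and 928.0 CPM in Q50 and 365.3 to 617.0 CPM in the other 4 libraries. It was not called (adjusted p = 0.370). Of 16 tested genes with the snRNA biotype, 14 had a negative slope, 4 at an unadjusted p under 0.05 (4.62% of all genes). Without Q50 replicate 1 only 3 of the 16 slopes were negative. This class was added after the values were seen.

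Among the microRNA genes, Mir15a fell and Mir142 rose. Of 40 tested microRNA genes and hosts, 18 had a positive and 22 a negative slope, with 1 called each way (0.846% of all genes in both directions). The miR-15 family acts on messages of cell cycle and survival genes. The level of Mir15a was 13.8 and 15.6 CPM in Q50, 4.4 and 9.8 CPM in Q92, and 1.1 and 3.7 CPM in Q111, from 30, 13, 7, 8, 2 and 6 counts. The 3 lines did not overlap, which the call itself favours, and both series stepped down at each line, although the counts were few. The share of all genes with 3 lines apart was not computed. The change of Mir15a, -2.40 ± 0.51 log2 (edgeR adjusted p = 0.00829), was the steepest fall among the called genes. The neighbour Mir16-1, with the same seed in its 5′ arm, had a fitted change of -1.67 ± 0.63 log2 (unadjusted p = 0.0106), in the same direction, and was not called (adjusted p = 0.305, chosen after its values were seen). Its series slopes were unequal, at 0.02 and -0.66 log2 per 10 repeats. Mir17hg, the host transcript of the Mir17-92 cluster, had a slope of -0.37 and was not called (adjusted p = 0.0639).

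Mir142, known as a microRNA of blood cells, was high in Q111 only. It had 13, 2, 2, 2, 54 and 24 counts, which gave 6.0 and 2.4 CPM in Q50, 1.3 and 2.5 CPM in Q92, and 28.7 and 14.7 CPM in Q111. Q111 stood above the other 4 libraries, while the Q92 mean lay below that of Q50, so its levels did not follow the repeat number step by step. Its fitted change was 2.42 ± 0.60 log2 (edgeR adjusted p = 0.0261), which was 0.83 log2 without Q111 replicate 1 and 6.46 log2 without Q50 replicate 1. Mir142 had enough counts to be tested only through the Q111 libraries, where it was high. Its calls therefore cannot be separated from that selection. Between single lines, Mir142 was the 1 gene called in Q111 against Q92 (0.0769% of the 1300 tested), at 3.71 ± 0.64 log2 (edgeR adjusted p = 0.0115). This call was lost without Q92 replicate 1, without Q92 replicate 2 and without either Q111 library, and the comparison had 4 and 2 calls without Q50 replicate 1 and replicate 2. Every 30-base stretch of the gene is shared with Mir142b on the opposite strand, and the strand setting of the counting is not given in the sources used here. Its host transcript Mir142hg had 2 counts in all, 1 in Q92 replicate 2 and 1 in Q111 replicate 2.

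Of the microRNA genes with a positive slope that were not called, Mir20b and Mir7-1 had the smallest p-values. Mir20b, of the X-linked cluster related to Mir17-92, had 7.4 and 9.6 CPM in Q50, 20.3 and 17.2 CPM in Q92, and 28.7 and 18.4 CPM in Q111. Q50 lay below the other 4 libraries, and in 11.8% of all genes Q50 stood apart from them in either direction. Its change of 1.55 ± 0.47 log2 had an edgeR adjusted p of 0.0997. Mir106a, beside it and with the same 5′ seed, had series slopes of 0.31 and -0.09 and an adjusted p of 0.696. Mir7-1, in an intron of Hnrnpk, had 13.4 and 19.2 CPM in Q50, 24.7 and 32.0 CPM in Q92, and 63.8 and 30.1 CPM in Q111, with a change of 1.53 ± 0.48 log2 (adjusted p = 0.110). Of the 7 tested ES-cell microRNAs, 5 had a negative slope and none an unadjusted p under 0.05. Mir293, the highest of them, had 741.4 to 1692 CPM and a slope of 0.00 ± 0.09 (adjusted p = 0.998). Mir292 differed more between replicates than along the repeat, with 280.7, 262.1 and 214.9 CPM in replicate 1 and 1285, 1039 and 415.9 CPM in replicate 2 of Q50, Q92 and Q111.

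Lncenc1, a long noncoding RNA named for its expression in embryonic stem cells (chr13:97434970-97497007, plus strand), rose at each line. Its level was 3.7 and 3.6 CPM in Q50, 10.1 and 9.8 CPM in Q92, and 22.3 and 16.0 CPM in Q111, from 8, 3, 16, 8, 42 and 26 counts. The 3 lines did not overlap, which the call itself favours, and the replicates of each line were close. The share of all genes with 3 lines apart was not computed. The fitted change was 2.43 ± 0.52 log2 (edgeR adjusted p = 0.00829), and it was 2.11 to 2.57 log2 when any 1 library was left out. The call of Lncenc1 was nevertheless lost without Q50 replicate 1 and without either Q111 library. It was also lost without the replicate block, with library totals, with no filter on low counts and in DESeq2's Wald test. Mt2 encodes a metallothionein, a small protein that binds zinc and copper. Its level was 6.4 and 4.8 CPM in Q50, 11.4 and 11.1 CPM in Q92, and 30.3 and 14.7 CPM in Q111, with a change of 1.99 ± 0.49 log2 (adjusted p = 0.0261). The lines did not overlap here either. Of its 30-base stretches, 58.9% occur in 2 other annotated genes, among the overlaps an antisense gene, Gm45774. Mt1, the neighbouring metallothionein gene, had 2, 3, 8, 5, 15 and 10 counts and a change of 1.94 ± 0.72 log2, and was not called (adjusted p = 0.295, chosen after its values were seen). Iqgap1, a scaffold protein of the cell cortex, was the next gene above 10 CPM with a positive slope (1.37 ± 0.49 log2, adjusted p = 0.242).

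**Figure D2:**
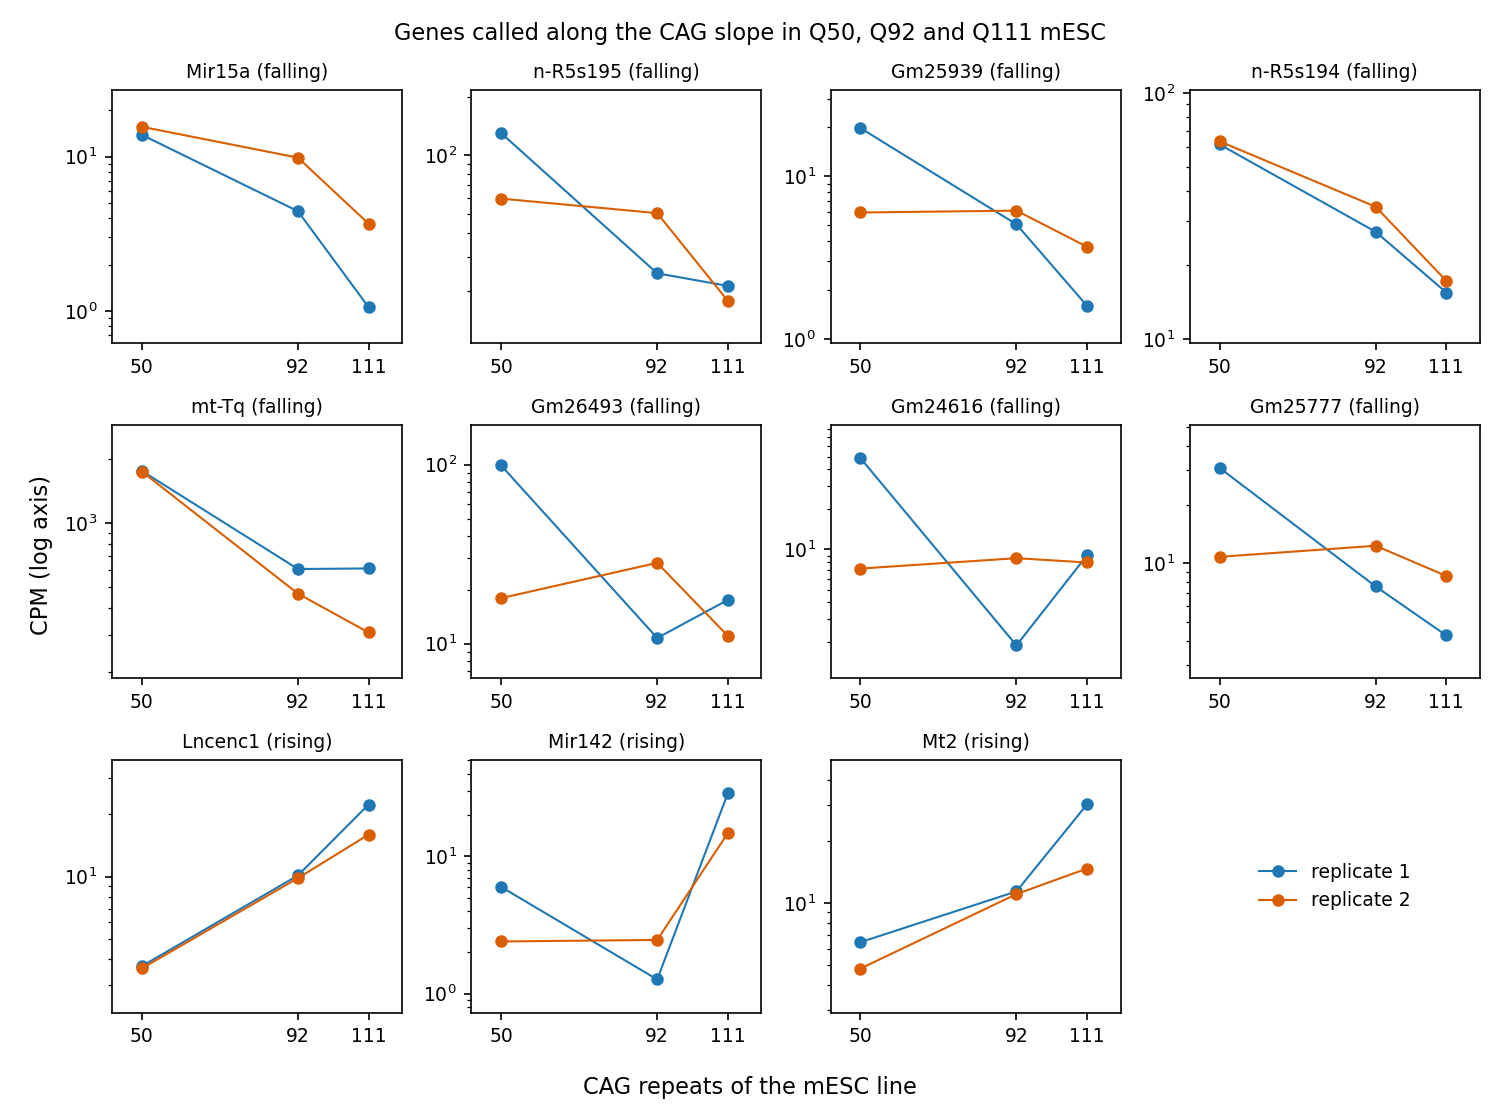
CPM on a log axis against the CAG repeats of the mESC line for the 11 called genes, with 1 point per library and 1 line per replicate series. Mir15a, n-R5s195, n-R5s194, Lncenc1 and Mt2 have lines that do not overlap, which the call itself favours. Over all genes tested, Q50 does not overlap Q92 and Q111 in 11.8%. In Gm26493, Gm24616 and Gm25777 only Q50 replicate 1 is high, and Mir142 is high in Q111 alone.

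No mRNA for a splicing factor, the kind of gene the study's title points to, was called along the slope. Of 41 tested splicing factor mRNAs, 26 had a positive and 15 a negative slope, and 1 was positive at an unadjusted p under 0.05 (4.15% of all genes), namely Snrnp70, of the U1 particle, with a slope of 0.27 ± 0.13 (adjusted p = 0.528) at 4.8 CPM. Sf3b1, of the U2 particle, had -0.13 ± 0.07 (adjusted p = 0.600). Of 12 tested mRNAs of small RNA pathways, 6 had a positive and 6 a negative slope with none called, and Ago2, which holds the mature microRNA, had a slope of -0.15 ± 0.08 (adjusted p = 0.584). None of 14 tested pluripotency mRNAs had an unadjusted p under 0.05, and Sox2 had a slope of 0.11 ± 0.08 (adjusted p = 0.744). The smallest adjusted p was 0.0841 both among 39 histone mRNAs (Hist1h2bb, slope -0.26) and among 37 ribosomal protein mRNAs (Rpl18, slope -0.25). In small RNA libraries such counts come from fragments, which is a limit on what they say about the full mRNA.

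**Figure D3:**
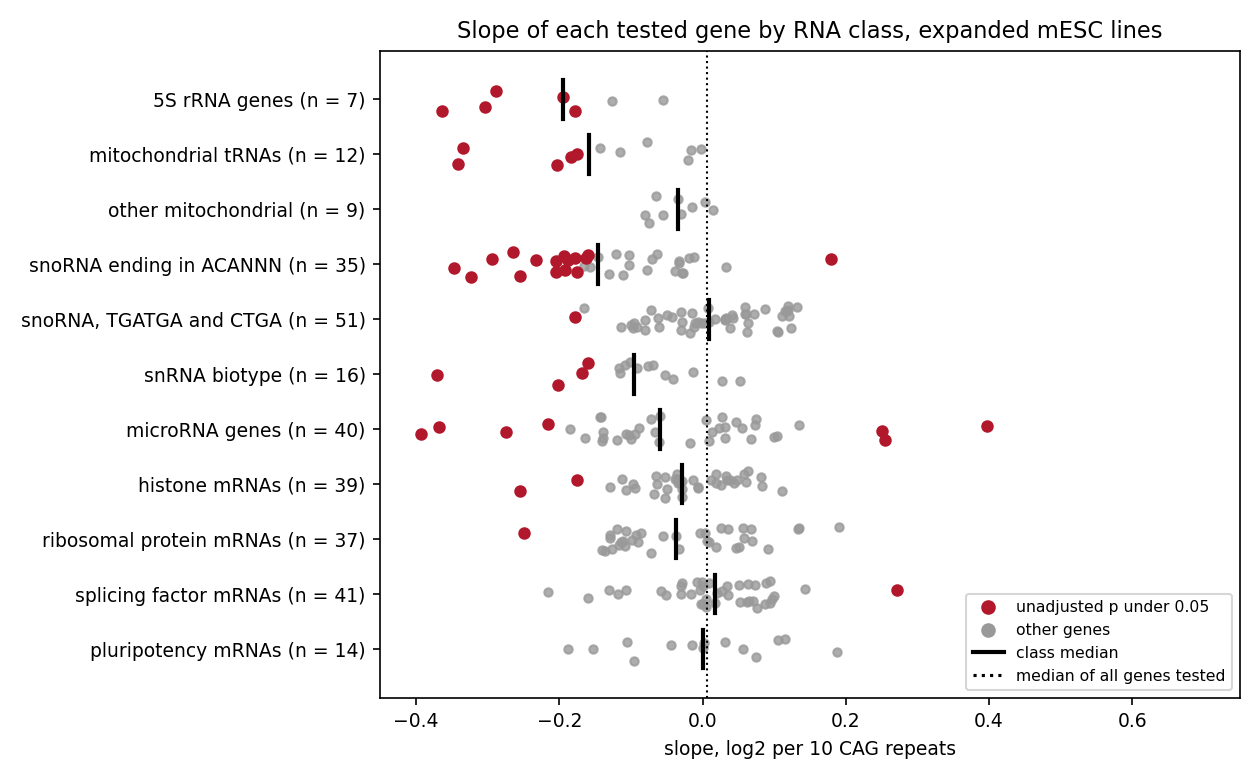
Slope in log2 per 10 CAG repeats (horizontal axis) of each tested gene in 11 RNA classes, with genes at an unadjusted p under 0.05 in red and the class median as a black bar. The medians of 5S rRNA genes, mitochondrial tRNAs and snoRNAs ending in ACANNN lie at -0.194, -0.159 and -0.146, left of the median of all genes at 0.00625 (dotted).

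The 2 replicate series gave the same sign of slope, through the log2 CPM of their 3 libraries, for 674 of the 1300 genes (51.8%). For the called genes the count was 10 of 11, which the call itself favours. The exception was Gm24616. The series slopes were close for n-R5s194 (-0.32 and -0.29 log2 per 10 repeats), Lncenc1 (0.40 and 0.34) and Mt2 (0.33 and 0.26). They were unequal for Gm26493 (-0.46 and -0.07), Gm25777 (-0.46 and -0.04) and Gm25939 (-0.54 and -0.09). In the test of replicate 2 against replicate 1, 115 genes were called (8.85%), 65 higher (5%) and 50 lower (3.85%), and between 41 and 76 when any 1 library was left out. None of the 11 called genes was among them, with adjusted p-values from 0.278 upward, whereas mt-Tm (adjusted p = 0.00402) and Mir292 (adjusted p = 0.00805) were.

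**Figure D4:**
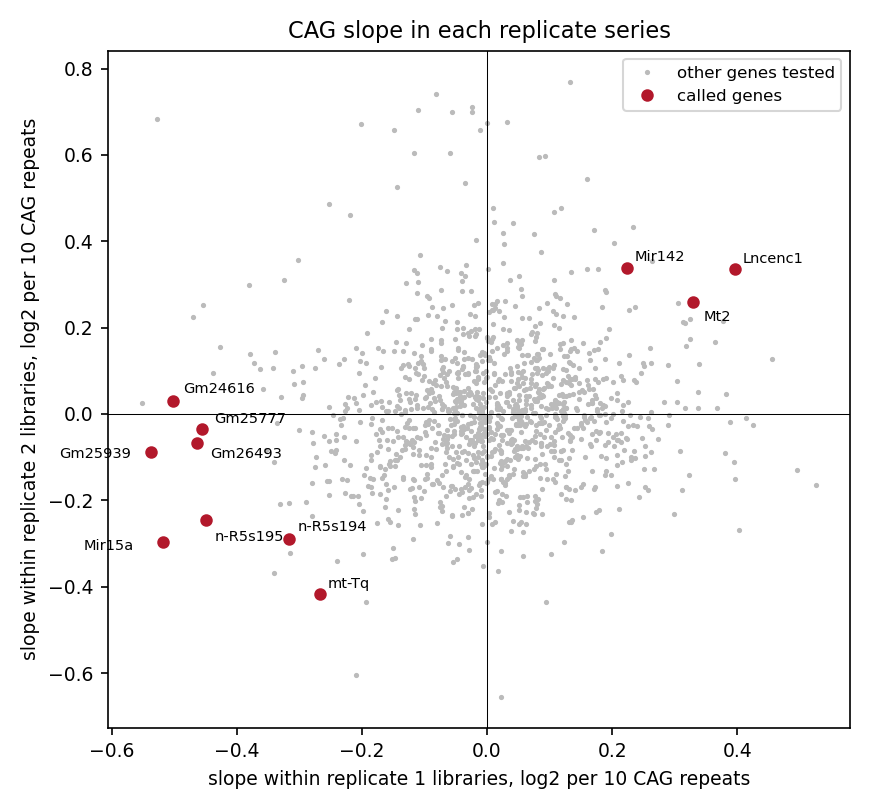
Slope within the replicate 2 libraries against slope within the replicate 1 libraries, both in log2 per 10 CAG repeats, for the 1300 genes tested, with the 11 called genes in red and named. Signs agree for 674 genes (51.8%). Mir142, Lncenc1, Mt2, Mir15a, mt-Tq and both 5S genes are far from 0 on both axes, while 4 other called genes lie near 0 for replicate 2.

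Between single lines little passed the test. No gene was called in Q92 against Q50 (0% of 1300, with 83 at an unadjusted p under 0.05) or in Q111 against Q50 (0%, with 114), where the smallest edgeR adjusted p was 0.0727, shared by Mir15a, n-R5s195, n-R5s194, Lncenc1 and Mir142. DESeq2's Wald test called 0 and 1 genes in these comparisons, leaving out Q50 replicate 1 gave 3 and 3, and leaving out Q50 replicate 2 gave 8 and 22. No gene departed from a straight line through the 3 lines at an adjusted p under 0.05 (0%, with 68 at an unadjusted p under 0.05). The smallest adjusted p there was 0.157, for Mir142, and 5 and 1 genes were called without Q50 replicate 1 and replicate 2. The mean of Q92 lay between those of Q50 and Q111 in 9 of the 11 called genes, the exceptions being Mir142 and Gm24616. The share of all genes with such a Q92 mean was not computed. The Q50 libraries did not overlap those of Q92 and Q111 in 6 of the 11, beside 153 of all 1300 genes (11.8%). The call itself favours both.

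The mESC lines outside the expanded range gave levels on the same scale, computed over 12 mESC libraries. For n-R5s195, n-R5s194, mt-Tq and Mir15a both Q50 libraries were above the other 10 mESC libraries (4 of 11 called genes, beside 1.92% of all genes). The call itself favours such positions, here and for Lncenc1 below, because the expanded lines among the 10 were in the slope fit. For Mir15a the lower Q50 library, at 12.87 CPM, barely exceeded KO replicate 2, at 12.86 CPM. For mt-Tq, KO, WT and Q20 ranged from 440 to 733 CPM, beside 435 to 568 CPM in Q92 and 286 to 571 CPM in Q111. WT overlapped Q92 and Q111, while the KO and Q20 libraries, at 597.8 to 733 CPM, lay between these and Q50. For Lncenc1 both Q111 libraries were above the other 10 (1 of 11, beside 2.08% of all genes), at 14.9 and 20.8 CPM against 4.4 to 13.4 CPM in KO, WT and Q20, while Q50 was lowest at 3.4 CPM in both libraries. Mir142 had 15.5 and 7.6 CPM in Q20, within reach of Q111, and under 1 CPM in both KO libraries. Mir15a ranged from 1.47 to 12.86 CPM and Mt2 from 2.6 to 14.1 CPM in KO, WT and Q20, which overlapped Q92 and Q111 for Mir15a and all 3 lines for Mt2. With the Q20 libraries added to the slope, 1 gene was called, which was none of the 11, and the 11 had adjusted p-values of 0.992 or more.

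**Figure D5:**
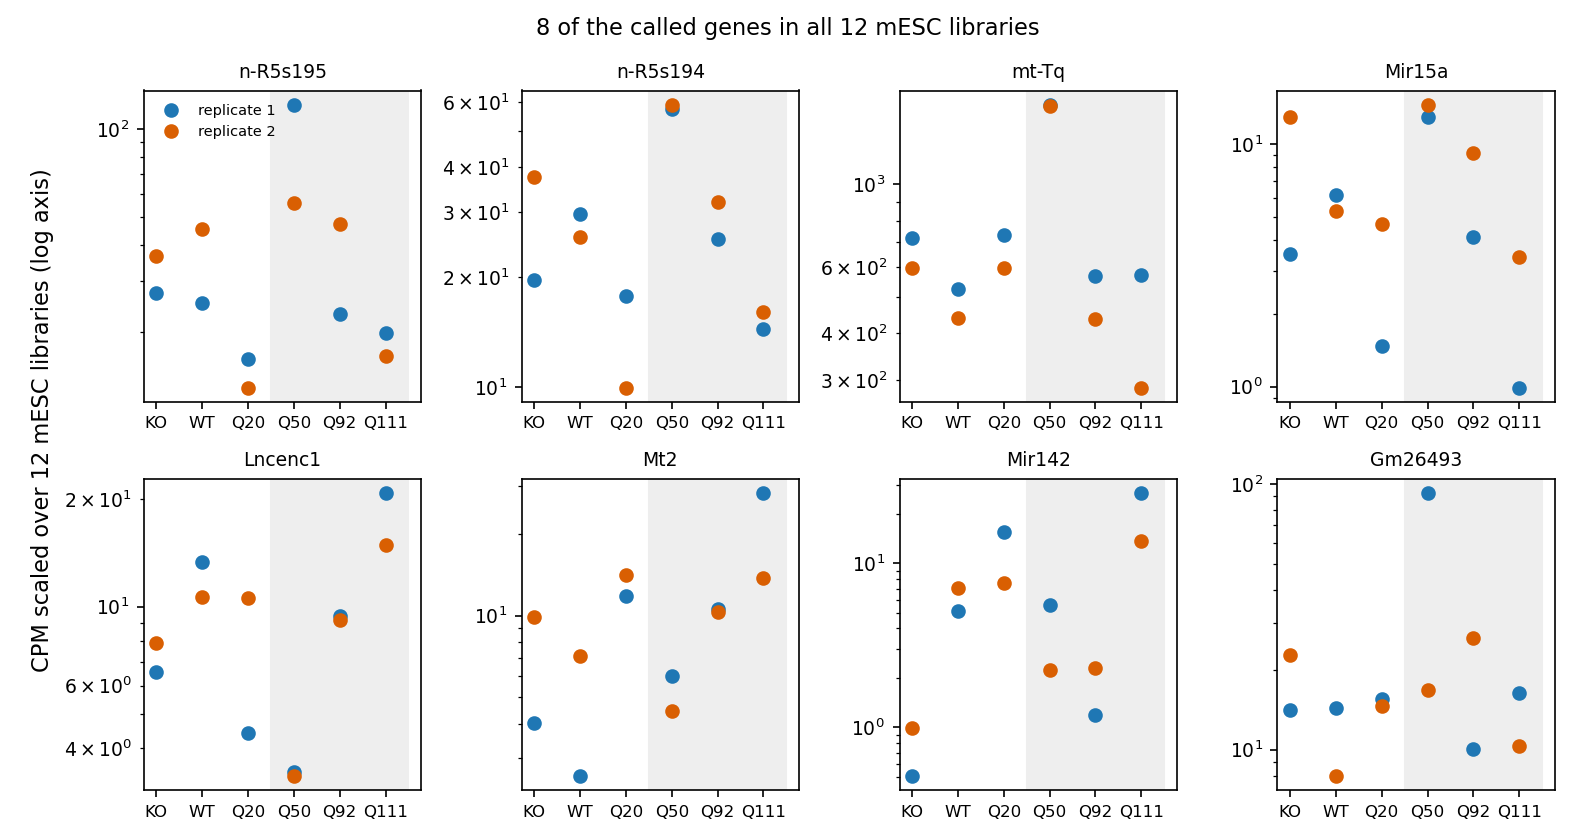
CPM on a log axis, scaled over 12 mESC libraries, for 8 called genes in KO, WT, Q20 and the expanded lines (grey band), with 1 point per library. Both Q50 libraries are the highest for n-R5s195, n-R5s194 and mt-Tq and, narrowly above KO replicate 2, for Mir15a, both Q111 libraries are the highest for Lncenc1, and WT and Q20 reach above Q50 for Mir142.

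The same 3 lines as NPC gave no gene called for a slope that differed from that in mESC. This was 0% of 579 genes tested over the libraries of both cell types. In edgeR's test 42 had an unadjusted p under 0.05, and the smallest adjusted p was 0.270. Some of the 579, such as Mir142 and Mir293, had no NPC count and could not be called. Lncenc1 and Mir142 had no count in the 6 NPC libraries, so their slopes could not be compared, and 7 of the 11 called genes had NPC counts and were tested. The smallest unadjusted p among them was that of Mt2, with a slope of 0.33 in mESC and -0.36 in NPC, a difference of -0.68 ± 0.22 log2 per 10 repeats (edgeR unadjusted p = 0.00558, adjusted p = 0.429). Its 9 NPC counts all came from the replicate 2 libraries. For mt-Tq the slope was -0.06 log2 per 10 repeats in NPC and -0.33 in mESC in this fit, a difference of 0.28 ± 0.12 (unadjusted p = 0.0267, adjusted p = 0.597). The 5S genes n-R5s195 and n-R5s194 had NPC slopes of -0.17 and -0.17, from 54 and 66 counts in all, and differences with adjusted p-values of 0.780 and 0.896. Mir15a had 31 NPC counts in all and a slope of -0.13 (adjusted p of the difference = 0.741). On simulated counts this comparison recovered 20% of genes changed by 2 log2, so a difference of that size may be missed. The changed genes were drawn at random from genes that included some with no NPC count, which could not be recovered. The rate therefore need not hold for the called genes with NPC counts. These are bulk samples, so fewer cells of a type and less RNA per cell cannot be told apart.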

How the data were processed

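The deposited table holds whole-number counts per Ensembl gene, not normalized, for 24 libraries. The submitters' processing notes name CASAVA 1.8, STAR, HTSeq and GRCm38.p6; adapter trimming and the strand setting are not given in the sources used here. Columns were assigned by the sample descriptions, and columns named Q89 were taken as those of the line titled Q92, for which the growth protocol has 89 repeats. Of 55335 identifiers, 55154 matched GENCODE M21 (GRCm38), and the others held 57 counts. The slope was fitted on the 6 libraries with edgeR 4.0.16 in R 4.3.3 (glmQLFit, glmQLFTest, TMM, filterByExpr with minimum count 10 and minimum total 15), with the replicate number as a block and Benjamini-Hochberg adjustment over all 1300 genes. Line means, the departure from a straight line and the product of slope and cell type used the same test. The biological coefficient of variation was 28.6% with 3 residual degrees of freedom. The prior degrees of freedom were 55.9, so the spread used for each gene came mostly from the other genes.

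Replicate differences of the lines correlated by 0.391, 0.455 and 0.418 across 1300 genes, so the numbers, which come from the labels, were taken to pair the mESC libraries. In NPC they correlated by -0.0261 to 0.0303. All replicate pairs differed beyond sampling noise (chi-square per degree of freedom 26.8 to 88.3).

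Named genes were those called with a log2 change of at least 1 over 50 to 111 repeats, a mean of at least 10 CPM and 1 sign in both series. In addition came the 5 smallest p-values in a direction with under 5 calls, of each gene list the 2 members with the smallest p and the 2 most abundant, and Htt. Mir15a, Gm25939 and Mir142 (mean under 10 CPM) and Gm24616 (unequal signs) were added as called genes. The members and lists were chosen with earlier results of these data known. Series slopes used log2 CPM with a prior count of 0.5. Sequences were compared in stretches of 30 bases. On counts simulated for the slope, 82% of 183 changed genes (2 log2) among 1074 tested were recovered, 1.96% of calls were false, and 13.1% were recovered without the block. The simulated counts carried the fitted replicate effect, so a loss without the block was built in. They had a larger share of changed genes than was called here and no added effect of a single library. These rates therefore need not hold for the data. Alternatives were DESeq2 1.42.0 size factors and Wald test, library totals, no filter, no block, other codings of the repeat, other sets of libraries and leaving out each library.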

Additional observations from a re-analysis of the deposited data

How the results depend on the processing

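The slope gave 11 calls. It gave 0 with no replicate block, 3 with library totals, 3 with no filter on low counts, 2 with DESeq2's Wald test, 1 with the Q20 libraries, 5 with the spread from all 12 mESC libraries and 0 of 40 with microRNA genes alone. Chosen after seeing the data, the fits within replicate 1 and within replicate 2 gave 42 and 0. Those fits had 1 library per line and no replication. With DESeq2 size factors, 89 repeats or log2 repeats the slope gave 8, 10 and 9. Leaving out 1 library gave 0 to 20 for the slope, 41 to 76 for replicate 2 against 1 (main 115), 0 to 8 for Q92 against Q50, 0 to 22 for Q111 against Q50, 0 to 4 for Q111 against Q92 (main 1), 0 to 5 for the departure from a straight line and 0 to 1 for NPC minus mESC (1 without mESC Q50 replicate 2). Replicate 2 against 1 gave 52 with no filter and 49 with DESeq2. Q111 against Q50 gave 1 with no filter, 1 with DESeq2 and 7 with the spread from all 12 libraries. Q111 against Q92 gave 0 without the block, 0 with DESeq2 size factors and 0 with DESeq2. The replicate block stayed in because the numbers were taken to pair these libraries from their correlated replicate differences. The labels do not say what the numbers mark, and depth differed by replicate number in every line. The cause of the differences between settings was not tested. Gm24616 ranged from -2.94 to 0.735 log2 when 1 library was left out, reversed without Q50 replicate 1, and was 0.129 within replicate 2, while the other 10 called genes kept their direction in all settings run. Limits are 2 libraries and 1 line per repeat number, and few counts: 3 called genes had a mean under 10 CPM.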

Other observations

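Several noncoding RNA groups had no called gene along the slope in edgeR's test. All 3 tested Y RNAs, which bind the Ro protein, had a positive slope (median 0.0626 log2 per 10 repeats), with Rny1 at 0.07 ± 0.10 (adjusted p = 0.910), and none reached an unadjusted p under 0.05. All 6 tested small Cajal body RNAs had a negative slope (median -0.0414), as did 613 of all 1300 genes, again with none at an unadjusted p under 0.05. Their slopes were negative for 1 of 6 within replicate 1 and for 6 of 6 within replicate 2. The 4 tested spliceosomal snRNAs with a symbol of their own were negative as well (median -0.0471), but negative within replicate 1 and positive within replicate 2 for all 4. Of 16 tested noncoding RNAs of the imprinted Dlk1-Dio3 region, 9 had a positive and 7 a negative slope, and Mir433 was the 1 gene at an unadjusted p under 0.05 (slope -0.22, adjusted p = 0.538). Rpph1, the RNA subunit of RNase P, had a slope of -0.16 ± 0.08 (adjusted p = 0.584).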
